A study of Mus musculus with 25 samples.

Results

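The 36 genes described here carry long-chain fatty acids into cells, activate them, pass them into mitochondria and oxidise them. They were chosen by name and grouped by step, with 5 genes of uptake and binding, 6 of activation to acyl-CoA, 4 of the carnitine shuttle, 17 of the oxidation spiral and electron transfer, and 4 of control. All 36 were listed among the 45706 genes of a table from mouse hypothalamus and in a table from cEND cells, an immortalised line of mouse brain endothelial cells.

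The hypothalamic mice were 12 weeks old and carried 2 transgenes. In Slco1c1-CreERT2 the promoter of Slco1c1 drives a Cre recombinase that tamoxifen switches on, and ROSA26lSlL10aGFP makes the ribosomal protein L10a, fused to GFP, once Cre has acted. The controls carried the same alleles and received tamoxifen too. Starting 3 weeks after tamoxifen, mice were fed for 3 days, either the control chow (CD) or chow rich in fat (HFD). INPUT and IP libraries were made for both diets, 4 of each, and every library came from 4 pooled mice, 2 female and 2 male. INPUT is RNA of the tissue lysate and IP is RNA precipitated with the GFP-tagged ribosomes (bacTRAP). The cEND cells received the vehicle DMSO or 0.5 or 10 µM of WZB117, which inhibits glucose uptake through Glut1, once each at passages 12, 14 and 18. The 9 libraries are all cultures of 1 line, so p-values for WZB117 measure the spread between cultures of that line. Each passage was grown once. P-values between passages measure the spread among libraries given different treatments, and hold none between repeated cultures of a passage. The study asked what a short high-fat diet does in endothelial cells of the hypothalamic blood-brain barrier, and what a block of Glut1 does in cultured endothelium.

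Fatty acids enter cells with the help of the translocase Cd36 and transport proteins such as Slc27a1, and bind inside to small carriers, the fatty acid binding proteins. Acyl-CoA synthetases couple them to coenzyme A, and Cpt1, Slc25a20 and Cpt2 move the acyl group across the mitochondrial membranes as carnitine esters. Within the mitochondrion each turn of the spiral removes a 2-carbon unit through a dehydrogenase, a hydratase, a second dehydrogenase and a thiolase, and the electrons of the first step pass through Etfa, Etfb and Etfdh to the respiratory chain. The nuclear receptors Ppara and Ppard and the coactivator Ppargc1a raise transcription of these genes in many tissues, and Pdk4 restrains glucose oxidation when fatty acids are burned. In the brain, fatty acid oxidation is known mainly from astrocytes, while endothelial cells of the barrier carry fatty acid transporters.

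Library totals ran from 27.9 M to 42.8 M (M, mega) estimated counts in the hypothalamic table and from 27.3 M to 41.3 M in the cEND table. Ribosomal RNA took 26.9 to 33.5% of counts in INPUT and 2.81 to 3.5% in IP, and mitochondrially encoded genes 28.1 to 36.2% and 0.0533 to 0.0786%. Genes of mitochondrial rRNA were counted in each class, which makes these percentages not additive. Levels are given as CPM (counts scaled to a common library size of 1e6, with TMM factors). Where genes are compared with each other they are CPM per kb of exon, with the exons of all annotated transcripts joined. That length (3567 bases for Fabp5, 10483 for Acsl1) can exceed the transcript present, so ranks and shares between genes are approximate. The IP libraries were labelled endothelial, and the summed level of 14 endothelial markers was higher in them, at 271.5 to 387.8 CPM against 55.8 to 73.1 CPM in INPUT. Cdh5, Pecam1 and Cldn5, which define endothelium, reached medians of only 6.06, 8.14 and 3.39 CPM there. The summed level of 10 astrocyte markers was far larger, at 38930 to 49420 CPM in IP against 4823 to 6587 CPM in INPUT, and all 10 were higher. The tanycyte and ependymal markers also summed to more in IP, at 88.1 to 211.1 CPM against 33.7 to 48.8 CPM in INPUT. Not all of the 7 rose, since 5 reached 1 CPM in each IP library and 6 in each INPUT library. Neuronal markers were lower in IP (8 of 8), as were 7 of 7 microglial and 6 of 7 oligodendrocyte markers. Pericyte and smooth muscle markers summed to 17.7 to 31.9 CPM in IP against 47.6 to 67.8 CPM in INPUT. Fibroblast markers summed to 6.57 to 14.3 CPM in IP against 31.2 to 42.6 CPM in INPUT. In what follows IP therefore stands for the precipitated RNA and not for a pure cell type. In cEND cells the endothelial markers summed to 4597 to 6523 CPM, although Slco1c1, the transporter whose promoter drove Cre in the mice, was at 0 in all 9 libraries.

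The precipitated RNA held more of most of these transcripts than the lysate did. Of the 36 genes, 30 were higher in IP, 4 were lower (Cd36, Fabp3, Acsl1 and Acsl4) and 2 did not pass (Acsl5 and Cpt1c), in edgeR's quasi-likelihood test with Benjamini-Hochberg adjustment. Among all 17592 genes tested, 41.6% were called higher and 42.1% lower. The median log2 difference between IP and INPUT was 1.83 over the 36 genes and -0.02 over all genes. All 8 IP libraries lay above all 8 INPUT libraries for the 30 genes called higher and below them for the 4 called lower. That separation was seen for 30.4% of all genes upward and 29.5% downward. In bulk RNA a smaller share of cells of a type and less RNA per cell cannot be told apart. Astrocyte markers rose in IP by a median of 2.94 on the log2 scale and endothelial markers by 2.27, and the part of either in these differences was not tested.

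**Figure D1:**
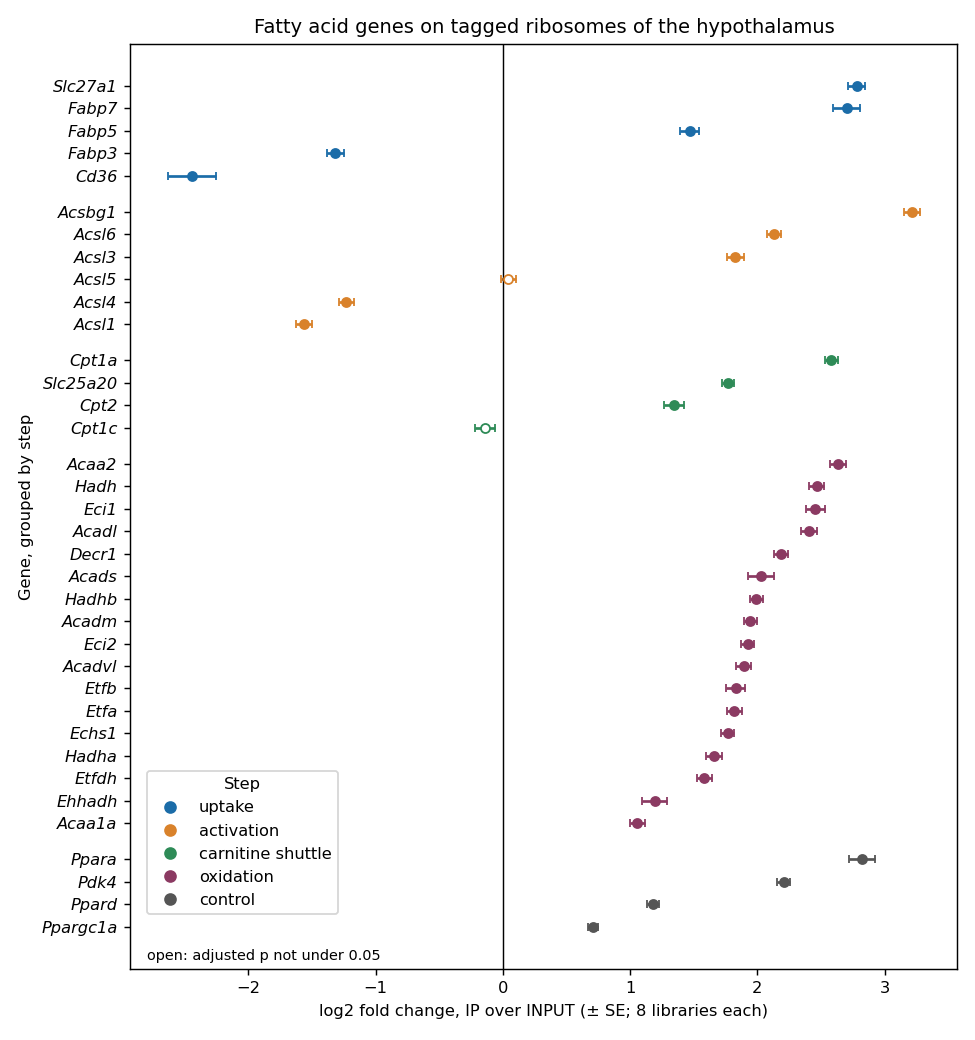
Log2 fold change of each of the 36 genes between 8 IP and 8 INPUT libraries, with the standard error, grouped by step. The 17 oxidation genes sit between 1.06 and 2.63, while uptake and activation genes spread from -2.44 to 3.21.

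The uptake genes split. Slc27a1 (ENSMUSG00000031808, chr8:71568882-71587302), which encodes the fatty acid transport protein FATP1, had 17.7 to 26.9 CPM in INPUT (median 22.2) and 119.9 to 196.7 CPM in IP (median 149.2). Its log2 difference was 2.78 (SE 0.07, edgeR adjusted p = 1.77e-20), and no library of one kind reached the range of the other. Fabp7, the brain-type fatty acid binding protein of astrocytes and radial glia, rose by 2.70 (SE 0.10) from a median of 54.2 to 353.5 CPM. Fabp5, the epidermal-type binding protein found in many cells including brain endothelium, was higher by 1.47 (SE 0.07). Fabp3, the heart-type binding protein, moved the other way, from 25.1 to 27.3 CPM in INPUT (median 25.7) to 9.01 to 13.9 CPM in IP (median 10.3). Its difference was -1.32 (SE 0.07, edgeR adjusted p = 1.65e-15). Cd36, a scavenger receptor and fatty acid translocase of capillary endothelium and microglia, was the scarcest of the 36 genes per kb in IP (median 0.107 CPM per kb). It had 1.52 to 3.75 CPM in INPUT and 0.204 to 0.819 CPM in IP, which came from 8 to 26 counts per IP library, and differed by -2.44 (SE 0.19). Thus 3 of 5 uptake genes were higher in IP and 2, Fabp3 and Cd36, were lower.

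Activation genes split as well. Acsbg1 (ENSMUSG00000032281, chr9:54604877-54661870), the bubblegum acyl-CoA synthetase, showed the largest difference of all 36 genes. Its level was 46.0 to 58.0 CPM in INPUT (median 48.8) and 420.6 to 533.7 CPM in IP (median 454.6), a log2 difference of 3.21 (SE 0.06, edgeR adjusted p = 1.25e-22). Acsl6, a synthetase of nervous tissue, followed with 72.4 to 90.9 CPM (median 80.4) in INPUT and 314.0 to 388.2 CPM (median 351.4) in IP, a difference of 2.13 (SE 0.05, edgeR adjusted p = 6.67e-22). Acsl3, a synthetase of the endoplasmic reticulum and lipid droplets, was higher by 1.83 (SE 0.07). Acsl1, the main synthetase of heart and adipose tissue, was lower by 1.56 (log2 difference -1.56, SE 0.06), and Acsl4, which prefers arachidonic acid, was also lower (-1.23, SE 0.06). For Acsl5 the groups overlapped, at 15.7 to 21.5 CPM in INPUT and 17.9 to 20.9 CPM in IP (log2 difference 0.04, SE 0.06, edgeR adjusted p = 0.507).

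The make-up of the gene families therefore differed between lysate, precipitate and cell line. By CPM per kb, Acsl3 held the largest median share of the 6 synthetases in INPUT (40.0%), ahead of Acsbg1 (22.0%). In IP Acsbg1 held 45.4 to 54.0% and Acsl3 28.8 to 38.5%, and the ranges of both did not meet. Acsl4 and Acsl1, with medians of 14.5% and 4.50% in INPUT, fell to 1.46% and 0.372% of the family in IP. In the 9 cEND libraries Acsl5, a synthetase of the mitochondrial outer membrane and endoplasmic reticulum, held 57.4 to 63.7% and Acsl4 24.1 to 28.0%, while Acsbg1 had a median of 0.932% and Acsl6 never exceeded 3 counts. Among the 3 binding proteins Fabp7 took 85.3 to 89.5% in IP and a median of 51.2% in INPUT, and Fabp5 took 99.6 to 100.0% in cEND cells. Cpt1a, the liver-type enzyme found in most tissues, held a median of 50.5% of its pair with the neuronal Cpt1c in INPUT, 86.5% in IP and 80.3% in cEND cells. The tables were normalised apart, so the shares in tissue and cells are set side by side with no test between them.

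**Figure D2:**
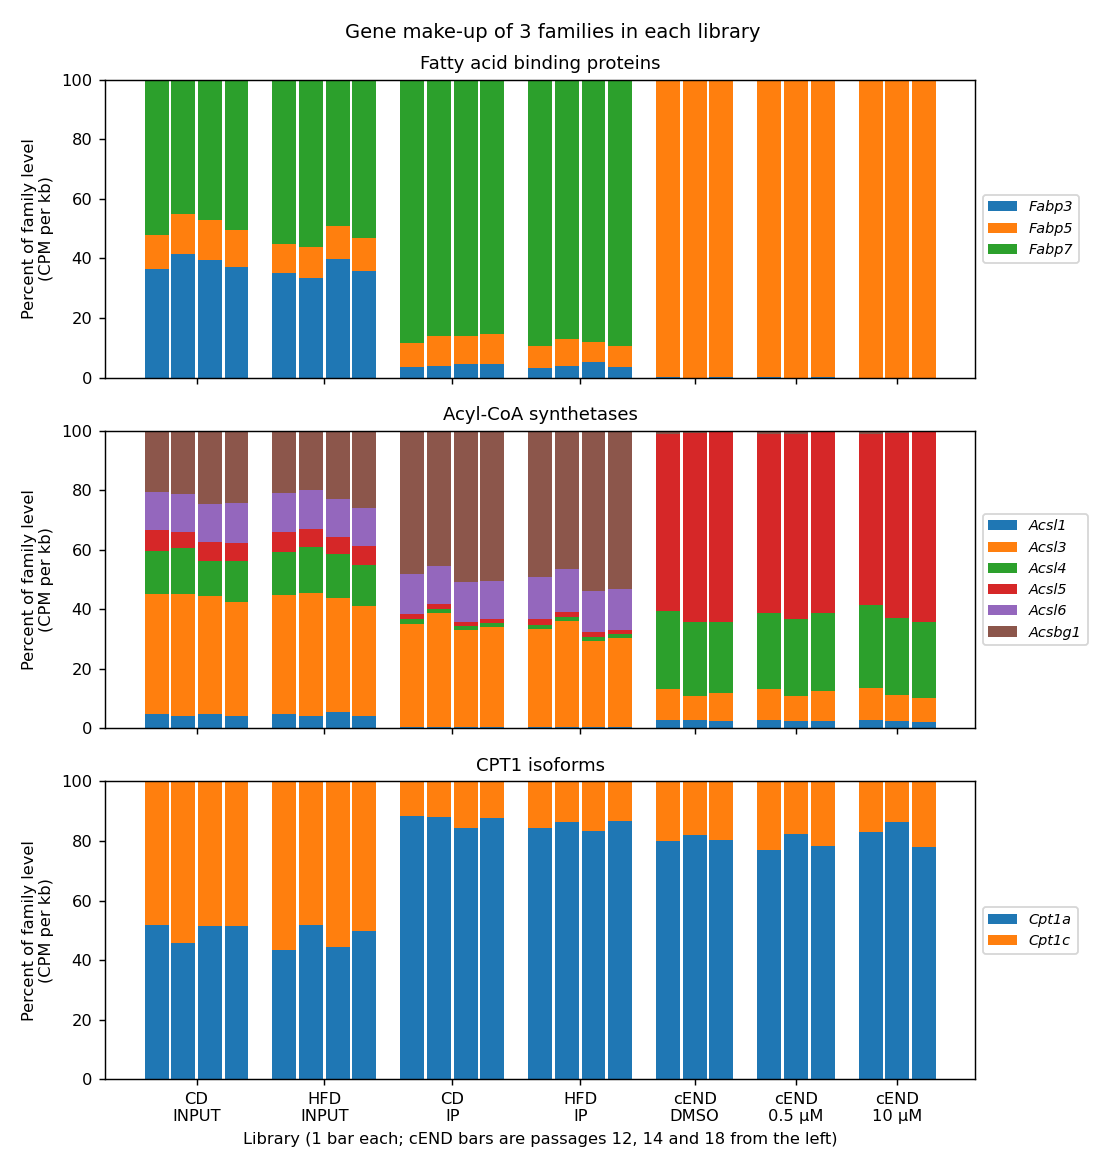
Share of each gene in its family's summed CPM per kb, 1 bar per library, for the binding proteins, acyl-CoA synthetases and CPT1 isoforms. Fabp7 and Acsbg1 fill most or the largest part of their families in IP, and Fabp5 and Acsl5 do so in the cEND libraries.

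In the carnitine shuttle 3 of 4 genes were higher in IP. Cpt1a (ENSMUSG00000024900, chr19:3322334-3385733), the rate-limiting gate for entry of long-chain acyl groups, had 14.6 to 17.7 CPM in INPUT (median 16.5) and 81.2 to 110.7 CPM in IP (median 97.9). The difference of 2.58 (SE 0.05) had the smallest p of the 36 genes (edgeR adjusted p = 2.15e-23). Slc25a20, the carnitine-acylcarnitine carrier of the inner membrane, went from 8.43 to 10.1 CPM in INPUT (median 9.48) to 30.2 to 33.9 CPM in IP (median 31.8). It differed by 1.77 (SE 0.05, edgeR adjusted p = 6.40e-21), and Cpt2, which restores the acyl-CoA inside, by 1.34 (SE 0.08). For Cpt1c the ranges overlapped, with 11.4 to 14.2 CPM in INPUT and 9.63 to 14.6 CPM in IP (-0.14, SE 0.08, edgeR adjusted p = 0.0947). It was called lower in DESeq2 (-0.18, adjusted p = 0.0413), in edgeR with RLE factors (-0.18, adjusted p = 0.0394) or upper-quartile factors (-0.27, adjusted p = 0.00216), which moved the median of all genes by -0.13, and in edgeR without CD IP replicate 3 (-0.20, adjusted p = 0.00725).

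All 17 oxidation genes were higher in IP, with a median log2 difference of 1.92. Acaa2, the mitochondrial thiolase, stood highest at 2.63 (SE 0.06, edgeR adjusted p = 5.38e-22), with 8.37 to 12.8 CPM in INPUT (median 9.88) and 58.1 to 74.4 CPM in IP (median 60.2). Hadh, the short-chain hydroxyacyl-CoA dehydrogenase, had 11.6 to 14.6 CPM (median 12.8) in INPUT and 66.3 to 80.8 CPM (median 71.9) in IP, a difference of 2.46 (SE 0.06, edgeR adjusted p = 2.95e-22). Decr1, the dienoyl-CoA reductase needed for unsaturated chains, had 15.4 to 19.2 CPM (median 17.9) and 68.3 to 86.3 CPM (median 81.3) in the same order, a difference of 2.19 (SE 0.05, edgeR adjusted p = 5.80e-22). In each of these 3 genes the lowest IP library was above the highest INPUT library. The acyl-CoA dehydrogenases of very long, long, medium and short chains (Acadvl, Acadl, Acadm and Acads) were higher by 1.89, 2.40, 1.95 and 2.03. Hadha and Hadhb, the subunits of the mitochondrial trifunctional protein, were higher by 1.66 and 1.99, and the electron carriers Etfa, Etfb and Etfdh by 1.82, 1.83 and 1.58. The smallest differences belonged to Acaa1a (1.06, SE 0.06), a thiolase, and Ehhadh (1.19, SE 0.10), a bifunctional enzyme, and both of these work in peroxisomes.

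The 4 control genes were higher too. Ppara, the nuclear receptor that drives oxidation genes in liver, had 1.06 to 2.11 CPM in INPUT (median 1.51) and 9.42 to 12.9 CPM in IP (median 10.9), a difference of 2.82 (SE 0.10, edgeR adjusted p = 2.33e-18). Pdk4, the kinase that inactivates pyruvate dehydrogenase, had 6.82 to 8.20 CPM (median 7.44) and 32.2 to 38.6 CPM (median 34.8), a difference of 2.21 (SE 0.05, edgeR adjusted p = 2.58e-22). Ppard, the more widely expressed receptor, had 14.5 to 17.0 CPM (median 15.99) and 32.0 to 37.6 CPM (median 36.5), a difference of 1.18 (SE 0.05, edgeR adjusted p = 1.69e-17). The coactivator Ppargc1a was the most abundant of the 4 per kb in INPUT (median 26.1 CPM per kb) and had the smallest difference (0.71, SE 0.04). In each of these 4 genes the IP and INPUT ranges were apart.

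Genes of the neighbouring pathways were tested in 6 further lists. Of 79 listed genes, 69 could be tested, 56 were higher in IP and 11 lower, with a median log2 difference of 1.09. Among all genes tested 41.6% were called higher and 42.1% lower, which holds for each list below. All 8 tested genes of carnitine supply were higher, among them Bbox1, which makes the last step of carnitine synthesis (2.59, SE 0.06), and the acyltransferases Crot (2.02) and Crat (1.55). All 14 further mitochondrial acyl-CoA genes were higher (Acad11 2.08, Ech1 1.91 and Echdc1 1.35), as were all 4 ketone body genes (among them Bdh1 1.29 and Oxct1 0.91). In peroxisomal oxidation 12 of 14 were higher and 1 lower, among them Phyh (2.05), Scp2 (2.36) and Abcd2 (2.10). Uptake and lipolysis had 8 higher and 4 lower of 13, and the smallest p belonged to Dbi, the acyl-CoA binding protein, which rose by 2.89 from a median of 258.4 to 1926 CPM. Transcriptional control and pyruvate dehydrogenase kinases were mixed, with 10 higher and 6 lower, for example Pdk2 (1.78), Nr1h3 (2.57) and Esrrg (-1.49).

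The 250 bases before the RefSeq start of each gene were read from the RefSeq annotation of GRCm38.p6. It held 38 such windows for 33 of the 36 genes (3 each for Acsl6 and Slc27a1, and 2 for Acsl1). Hadha and Hadhb lie head to head on chromosome 5 with 272 bases between their starts (30154980 on the minus strand and 30155253 on the plus strand), and both were higher in IP. The Hadhb window at chr5:30155003-30155252 (plus strand) is shown first, with capitals for the 228 bases that also lie in the window of Hadha. The other windows are those of the shuttle gate, of the binding protein that fills the family in IP and of the nervous tissue synthetase. They are Cpt1a at chr19:3323051-3323300, Fabp7 at chr10:57784673-57784922 and Acsl6 at chr11:54303574-54303823, all on the plus strand, with capitals for the AGGTCA core of nuclear receptor sites (Cpt1a, Fabp7) or the longer TCAAGGTCA site of estrogen-related receptors (Acsl6), here read on the opposite strand. The Acsl6 window shown is the only one of its 3 with that site. The Cpt1a, Fabp7 and Acsl6 windows were picked as windows that hold a marked site, and none belongs to an oxidation gene. Most windows lack these sites, since AGGTCA was in 8 of the 38 and TCAAGGTCA in 1.
Hadhb: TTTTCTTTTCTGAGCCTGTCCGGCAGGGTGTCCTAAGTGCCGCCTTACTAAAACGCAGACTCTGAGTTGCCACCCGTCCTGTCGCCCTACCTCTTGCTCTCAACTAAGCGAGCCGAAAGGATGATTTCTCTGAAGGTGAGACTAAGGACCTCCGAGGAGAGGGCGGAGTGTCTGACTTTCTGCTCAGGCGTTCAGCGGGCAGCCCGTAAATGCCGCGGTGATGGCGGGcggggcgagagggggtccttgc
Cpt1a: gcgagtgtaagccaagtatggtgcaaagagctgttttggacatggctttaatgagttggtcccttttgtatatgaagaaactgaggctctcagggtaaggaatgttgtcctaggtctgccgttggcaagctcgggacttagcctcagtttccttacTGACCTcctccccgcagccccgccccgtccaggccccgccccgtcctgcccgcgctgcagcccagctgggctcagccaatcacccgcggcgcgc
Fabp7: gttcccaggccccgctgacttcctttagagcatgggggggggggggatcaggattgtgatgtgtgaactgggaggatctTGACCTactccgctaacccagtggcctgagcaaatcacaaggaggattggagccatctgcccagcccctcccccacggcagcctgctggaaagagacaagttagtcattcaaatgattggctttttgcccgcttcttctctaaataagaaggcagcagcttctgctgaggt
Acsl6: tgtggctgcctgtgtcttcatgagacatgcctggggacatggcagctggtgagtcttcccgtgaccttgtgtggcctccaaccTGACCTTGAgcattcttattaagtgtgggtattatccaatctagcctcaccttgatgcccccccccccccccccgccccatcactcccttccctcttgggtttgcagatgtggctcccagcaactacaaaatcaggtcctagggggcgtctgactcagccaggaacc

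Motif counts over both strands describe letters only. AGGTCA was found in 8 of the 38 windows and in 14% of 32851 windows of the genome. The direct repeat AGGTCANAGGTCA, the form bound by PPAR, was in none of the 38 and in 0.0335% of all windows. TCAAGGTCA, which overlaps AGGTCA, was in 1 of the 38, that of Acsl6 shown, and in 0.387% of all windows. The GC box GGGCGG was in 25 of the 38 and 32.7% of all windows, and CCAAT in 21 and 33.8%. TATAAA was in none and in 12.4%, and CACGTG in 1 of the 3 windows of Slc27a1 and 6.02%.

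After 3 days of high-fat diet no gene of the 36 passed the test in IP. The tool was edgeR's quasi-likelihood test with Benjamini-Hochberg adjustment, which called 0.0883% of 15858 genes. At an unadjusted p under 0.05 there were 6 of the 36, against 11.5% of all genes, and DESeq2 called 1, Slc27a1. The median log2 difference (HFD minus CD) was -0.02 over the 36 genes and 0.00 over all genes, and 11 of the 36 were above 0. All 17 oxidation genes lay between -0.19 and 0.13.

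Slc27a1 came closest. Its CD IP libraries had 156.2, 166.6, 196.7 and 177.9 CPM and its HFD IP libraries 119.9, 142.3, 128.1 and 140.3 CPM, in replicate order. Every HFD pool was below every CD pool, and the log2 difference was -0.38 (SE 0.08, edgeR adjusted p = 0.0681). It passed in DESeq2 (-0.38, adjusted p = 0.00240), in 1 edgeR fit of all 16 libraries (-0.39, adjusted p = 0.0350), with no filter on low counts (-0.38, adjusted p = 0.000134), and in edgeR without CD IP replicate 1 (-0.43, adjusted p = 0.0360) or without HFD IP replicate 2 (-0.41, adjusted p = 0.0428). It did not pass with RLE or upper-quartile factors, or with any other single library left out. DESeq2 and the fit with no filter called more of all genes, 200 and 398 against 14 in the main fit. In INPUT the same gene had 23.6, 20.2, 26.9 and 25.0 CPM with CD and 21.1, 17.7, 19.8 and 23.3 CPM with HFD. There the diets overlapped (-0.22, edgeR adjusted p = 0.636), and the difference of the diet effects between IP and INPUT was -0.17 (SE 0.13, edgeR adjusted p = 0.99985).

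Pdk4 and Cd36 were the other genes whose diet groups were apart in IP, so that 3 of 36 were, against 6.23% of all genes. Pdk4 had 33.5, 32.4, 32.2 and 33.0 CPM with CD and 36.4, 36.7, 38.6 and 35.99 CPM with HFD, a small difference upward (0.19, SE 0.07, edgeR adjusted p = 0.264). Cd36 had 0.397, 0.522, 0.610 and 0.819 CPM with CD and 0.369, 0.266, 0.204 and 0.316 CPM with HFD (-0.99, SE 0.36, edgeR adjusted p = 0.279), which rests on 8 to 26 counts per library. Acsl3 had 389.5, 458.7, 412.7 and 429.3 CPM with CD and 340.1, 420.0, 293.3 and 337.6 CPM with HFD, and the groups overlapped through HFD replicate 2 (-0.26, SE 0.09, edgeR adjusted p = 0.267, and 0.0357 with no filter on low counts). Cpt1a differed by -0.18 (edgeR adjusted p = 0.326). In the same libraries the astrocyte markers summed to 41480 to 49420 CPM with CD and 38930 to 42350 CPM with HFD, and the tanycyte and ependymal markers to 88.1 to 106.8 and 126.3 to 211.1 CPM. The endothelial markers summed to 299.9 to 387.8 CPM with CD and 271.5 to 350.3 CPM with HFD (12 of 14 with a log2 difference below 0), and the oligodendrocyte markers to 649.0 to 733.2 and 599.2 to 703.8 CPM (5 of 7 below 0). No marker of these 4 lists was called. The part of these shifts in the values above was not tested.

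**Figure D3:**
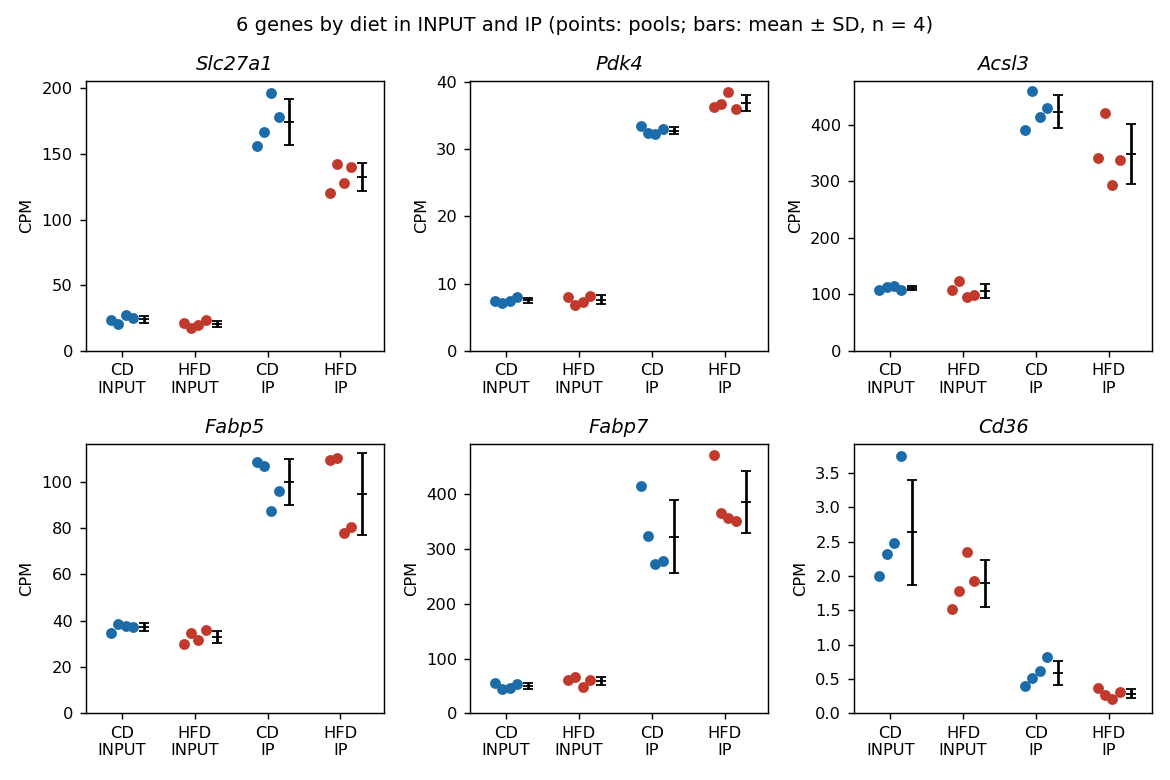
CPM of 6 genes in each pool by diet, in INPUT and IP, with mean and SD of 4 pools (n = 4). The diets are apart in IP for Slc27a1, Pdk4 and Cd36, and overlap for Acsl3, Fabp5 and Fabp7.

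The lysate showed no call either. In INPUT edgeR called 0 of the 36 genes and 0.0355% of 16879 genes, DESeq2 called 0 of the 36, and 4 of the 36 had an unadjusted p under 0.05 against 7.45% of all genes. Those 4 were uptake genes, namely Fabp5, Fabp7, Cd36 and Slc27a1. Fabp5 had 34.6, 38.7, 37.8 and 37.4 CPM with CD and 30.1, 34.8, 31.6 and 35.8 CPM with HFD (-0.16, SE 0.07, edgeR adjusted p = 0.605). Fabp7 went upward, from 55.6, 44.8, 46.1 and 52.9 CPM to 60.3, 65.6, 48.9 and 61.7 CPM (0.25, SE 0.09, edgeR adjusted p = 0.605, and 0.0145 with no filter on low counts). Cd36 had 2.00, 2.32, 2.49 and 3.75 CPM with CD and 1.52, 1.78, 2.35 and 1.93 CPM with HFD (-0.48, SE 0.20, edgeR adjusted p = 0.627). The tanycyte and ependymal markers summed to 33.7 to 37.3 CPM with CD and 41.6 to 48.8 CPM with HFD in INPUT, with 1 of 7 called higher, and their part in these values was not tested. The diets overlapped in all 4 uptake genes, and 1 of the 36 genes (Slc25a20) had its diet groups apart in INPUT, against 4.54% of all genes.

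No gene passed the test of a diet effect that differs between IP and INPUT. The interaction in edgeR called 0 of 36 genes and 0% of 17592, none of the 36 had an unadjusted p under 0.05 (4.29% of all genes did), and DESeq2 called 0 of the 36. The smallest p belonged to Ehhadh (-0.35, SE 0.20), Acsl3 (-0.22, SE 0.13) and Pdk4 (0.15, SE 0.10), each with an edgeR adjusted p of 0.99985. None of the 66 related genes tested in IP and none of the 68 tested in INPUT passed the diet comparison.

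In cEND cells 29 of the 36 genes had enough counts to be tested. Cd36, Fabp3, Fabp7, Acsl6, Ppara and Ppargc1a were at 0 to 6 counts per library and Pdk4 at 0 to 12, so a change in them could not be detected at this depth. The most abundant per kb were Acsl5 (median 63.5 CPM per kb), Fabp5 (35.7), Acaa2 (27.8), Acadvl (27.5) and Acsl4 (26.5). All 17 oxidation genes were tested, and their medians ran from 0.710 CPM per kb for the peroxisomal Ehhadh and 4.43 for Decr1 to 27.8 for Acaa2.

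At 0.5 µM of WZB117 none of the 29 genes passed. Against DMSO edgeR's quasi-likelihood test called 0 of them and 0% of 15466 genes, DESeq2 called 0 of them, and none of the 29 had an unadjusted p under 0.05 (0.356% of all genes did). The smallest p belonged to Slc27a1 (0.29, SE 0.15), Ehhadh (-0.31, SE 0.21) and Echs1 (-0.09, SE 0.11). Slc27a1 had 31.0, 28.1 and 31.4 CPM with DMSO at passages 12, 14 and 18, and 43.1, 33.9 and 33.2 CPM at 0.5 µM, so all 3 treated libraries were above all 3 with DMSO. It was the 1 gene of the 29 that was apart from DMSO, against 2.81% of all genes. Ehhadh had 2.29, 2.08 and 2.29 CPM with DMSO and 2.16, 1.58 and 1.63 CPM at 0.5 µM, and Echs1 had 42.9, 44.0 and 38.2 CPM and 42.0, 39.7 and 36.1 CPM. Both overlapped between the groups.

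At 10 µM the outcome depended on whether the shared passage was used. Without it edgeR called 0 of the 29 genes and 1.27% of all genes, DESeq2 called 1 (Slc27a1), and 3 of the 29 had an unadjusted p under 0.05 (11.2% of all genes). With passage as a block, which the shared passage labels give, 3 genes were higher and 1 lower than with DMSO, while 9.23% of all genes were called higher and 9.29% lower. Slc27a1, Ppard and Etfdh rose and Fabp5 fell, and the other 25 genes did not pass.

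Slc27a1 reached 51.6, 36.7 and 41.6 CPM at 10 µM against 31.0, 28.1 and 31.4 CPM with DMSO at the same passages. All treated libraries were above all DMSO libraries, and the difference was 0.51 (SE 0.08, adjusted p = 3.10e-05 in edgeR with the block, and 0.52 with adjusted p = 0.180 without it). Such a separation was seen for 6 of the 29 genes (also Ppard, Etfdh, Cpt1a, Cpt2 and Acadm), against 15.6% of all genes in either direction. Ppard had 19.2, 16.5 and 20.0 CPM against 11.7, 14.03 and 15.8 CPM, again with no overlap (0.43, SE 0.11, edgeR adjusted p = 0.00486 with the block and 0.235 without). Etfdh, which passes electrons on to ubiquinone, had 61.6, 61.95 and 64.2 CPM against 53.9, 53.4 and 56.2 CPM, apart by a small but even step (0.20, SE 0.06, edgeR adjusted p = 0.0279 with the block and 0.327 without). Fabp5 had 90.3, 115.6 and 315.4 CPM against 118.9, 128.8 and 347.5 CPM. Its level at passage 18 was far above the others in both groups, so the groups overlapped, but it was lower at each passage (-0.23, SE 0.07, edgeR adjusted p = 0.0210 with the block and 0.973 without).

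Within passages, 10 of the 29 genes were higher at 10 µM than with DMSO at all 3 passages and 5 were lower, against 22.3% and 24.6% of all genes. The oxidation genes had a median log2 difference of 0.06 with the block, and 16 of 17 did not pass. Cpt1a had 111.8, 121.3 and 109.3 CPM at 10 µM against 96.0, 98.8 and 107.8 CPM with DMSO, above DMSO by 0.22, 0.30 and 0.02 (log2) at passages 12, 14 and 18.

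**Figure D4:**
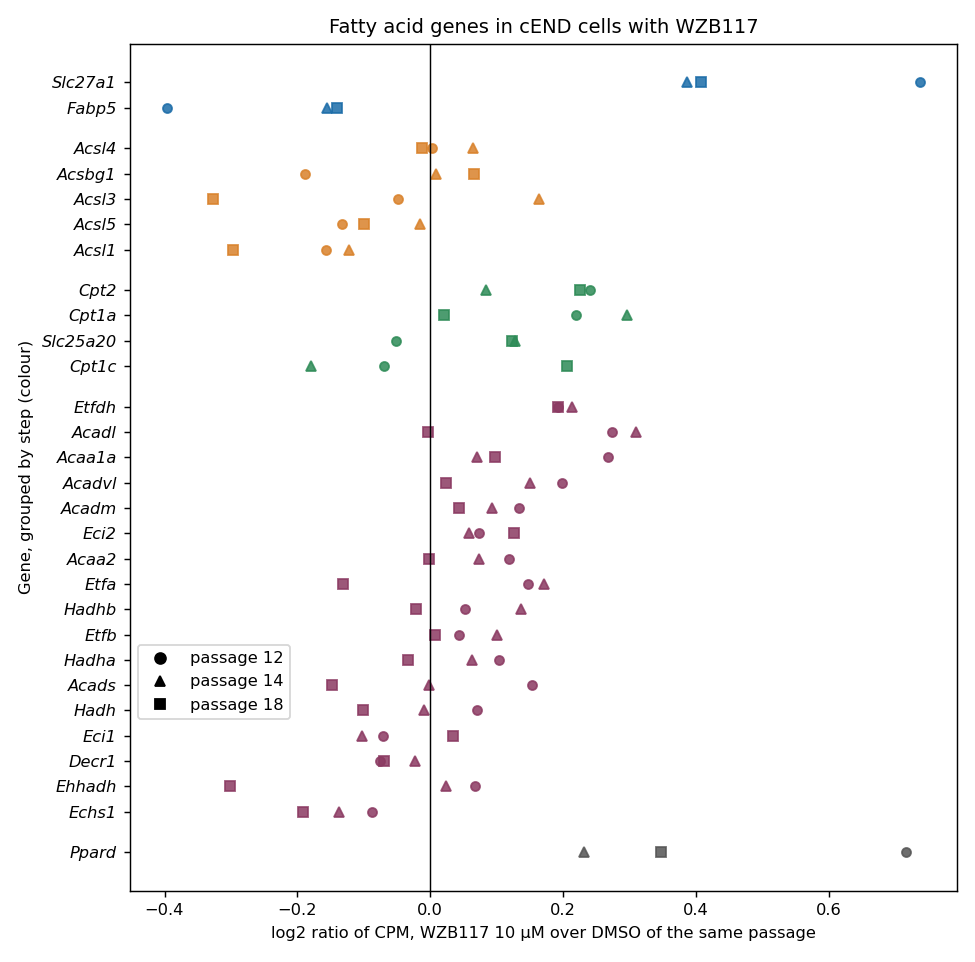
Log2 ratio of CPM at 10 µM WZB117 over DMSO of the same passage for the 29 genes tested, with 1 symbol per passage. Slc27a1, Ppard and Etfdh lie above 0 and Fabp5 below 0 at all 3 passages, and most oxidation genes lie close to 0.

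Some of the same genes differed between the doses. Between 10 and 0.5 µM edgeR called 0 of the 29 genes and 1.27% of all genes without the block, DESeq2 called 0, and 3 of the 29 had an unadjusted p under 0.05 (11% of all genes). With the block 5 were higher and 1 lower, against 9.28% and 8.55% of all genes. Etfdh had 52.0, 52.5 and 54.9 CPM at 0.5 µM, and its difference between doses was 0.24 (SE 0.06, edgeR adjusted p = 0.00948 with the block and 0.245 without). Ppard had 14.3, 14.8 and 13.2 CPM at 0.5 µM and differed by 0.39 (SE 0.10, edgeR adjusted p = 0.00912 with the block and 0.290 without). The doses were apart in both genes, among 6 of the 29, against 15.1% of all genes. The further blocked calls were Fabp5 (-0.32, edgeR adjusted p = 0.00152), Slc27a1 (0.23, adjusted p = 0.0368), Acadl (0.21, adjusted p = 0.0431) and Cpt1a (0.18, adjusted p = 0.0455). Cpt2 was apart between the doses, with 16.3, 15.8 and 15.9 CPM at 0.5 µM and 18.9, 17.6 and 19.0 CPM at 10 µM (0.21, SE 0.09), but did not pass (edgeR adjusted p = 0.418 without the block).

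Of the related genes, 1 rose and 1 fell at 10 µM without the block, both of them among the 15 tested genes of transcriptional control and pyruvate dehydrogenase kinases. Pdk1, a kinase that blocks pyruvate dehydrogenase, had 28.1 to 42.2 CPM with DMSO and 88.5 to 97.7 CPM at 10 µM, and rose by 1.40 (SE 0.20, edgeR adjusted p = 0.0128 without the block). Ppargc1b, a coactivator of oxidation genes, went from 5.29 to 6.19 CPM to 1.64 to 2.76 CPM (-1.50, SE 0.23, edgeR adjusted p = 0.0170). These were the only 2 of 66 related genes called at 10 µM against DMSO without the block, against 1.27% of all genes. The same 2 were called between 10 and 0.5 µM, where 1.27% of all genes were called as well. With the block 8 were higher and 2 lower, among them Pdk3 (0.60), the transporter Slc27a4 (0.52) and the peroxisomal oxidase Acox3 (0.35). That is 12.1% higher and 3.03% lower, against 9.23% and 9.29% of all genes.

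More of the 29 genes tested were called between passages, with treatment held in the edgeR fit, than with the drug. The same was so among all genes, with 3336 called from passage 12 to 14, 5422 from 12 to 18 and 5121 from 14 to 18. At 10 µM against DMSO 2864 were called with the block. Passage and culture batch cannot be told apart, since each passage was grown once. The p-values between passages hold no spread between repeated cultures of a passage. From passage 12 to 18, 5 of 29 genes were higher and 8 lower, against 15.9% and 19.2% of all genes. Fabp5 (ENSMUSG00000027533, chr3:10012548-10016607) had 90.3 to 118.9 CPM at passage 12, 115.6 to 128.8 CPM at passage 14 and 315.4 to 426.5 CPM at passage 18. Its 3 libraries of passage 18 were above all others, and the difference from passage 12 was 1.73 (SE 0.07, edgeR adjusted p = 1.51e-15). Acsbg1 went down, from 4.73, 3.99 and 4.15 CPM at passage 12 (DMSO, 0.5 and 10 µM) to 1.93, 1.83 and 2.02 CPM at passage 18 (-1.15, SE 0.19, edgeR adjusted p = 2.05e-05). All other differences from passage 12 to 18 were under 0.5 on the log2 scale.

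Among those smaller differences Slc25a20 rose from 32.2 to 35.7 CPM at passage 12 to 41.8 to 45.5 CPM at passage 18 (0.35, SE 0.07, edgeR adjusted p = 0.000335). Eci1, an enoyl-CoA isomerase, rose from 19.2 to 20.8 CPM to 25.4 to 28.1 CPM (0.41, SE 0.08, edgeR adjusted p = 0.000218), and Decr1 from 13.1 to 14.7 CPM to 17.2 to 18.5 CPM (0.37, SE 0.09). Both enzymes act on unsaturated chains, as does Eci2, which fell. Hadhb fell from 164.8 to 179.3 CPM to 134.8 to 139.2 CPM (-0.33, SE 0.06, edgeR adjusted p = 0.000117). The dehydrogenases Acads (-0.34, SE 0.07) and Acadl (-0.35, SE 0.07) and Eci2, another enoyl-CoA isomerase (-0.32, SE 0.07), fell as well, each with its passage 18 libraries below those of passage 12. Of the 29 genes, 7 had all passage 18 libraries above those of passage 12 and 8 below, while 35.6% of all genes were apart. The median over the 17 oxidation genes was -0.04, with 3 called higher, 5 lower and 9 not called.

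Of the 13 calls between passages 12 and 18, 4 rested on single libraries. Acsl1 (-0.22, edgeR adjusted p = 0.0289) lost its call without the DMSO library of passage 12 or 18, the 0.5 µM library of passage 14, or the 10 µM library of passage 12 or 18 (adjusted p 0.0531 to 0.196). Slc27a1 (-0.23, edgeR adjusted p = 0.0254) lost it without any 1 of the 4 drug-treated libraries of passages 12 and 18 (0.0865 to 0.221). Acaa1a lost it without the DMSO or 0.5 µM library of passage 12 or 18 (edgeR adjusted p 0.0625 to 0.152). Echs1, the short-chain enoyl-CoA hydratase (-0.22, edgeR adjusted p = 0.0138), lost it without the 0.5 µM library of passage 12 or the 10 µM library of passage 18 (0.0669 and 0.0691). Without the 10 µM library of passage 18 the counts were 8 higher and 5 lower. The same 4 genes did not pass when the treatment term was left out (edgeR adjusted p 0.0663 to 0.415), and Slc27a1 and Acsl1 did not in DESeq2 (adjusted p = 0.0539 and 0.0605).

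**Figure D5:**
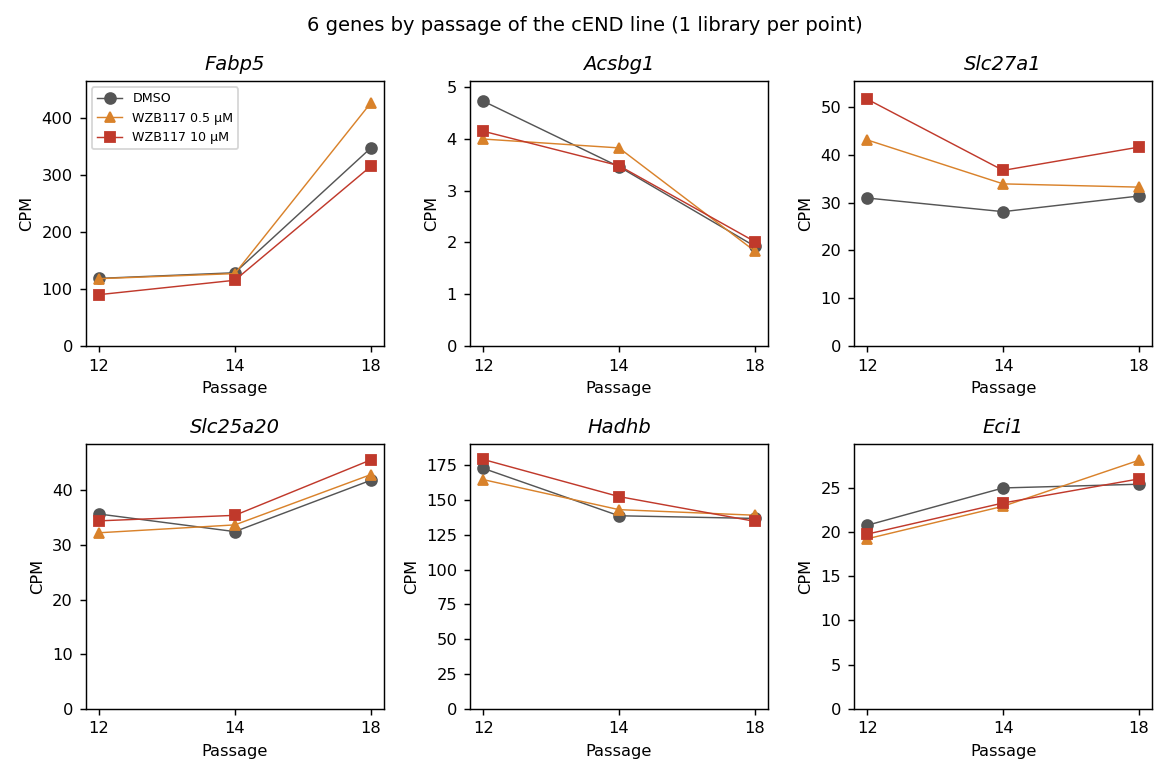
CPM of 6 genes in each cEND library by passage, with 1 line per treatment. Fabp5 is highest and Acsbg1 lowest at passage 18 in all 3 treatments, and the other 4 genes change by less.

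Between passages 12 and 14, 3 genes were higher and 6 lower, against 10.1% and 11.5% of all genes. Slc27a1 fell by 0.33 on the log2 scale (log2 difference -0.33, SE 0.08, edgeR adjusted p = 0.00274), from 31.0, 43.1 and 51.6 CPM to 28.1, 33.9 and 36.7 CPM with DMSO, 0.5 and 10 µM. The ranges overlapped, because the treatments differed at each passage. Acads went from 49.4, 52.6 and 54.9 CPM to 43.2, 41.6 and 43.2 CPM (-0.29, SE 0.07, edgeR adjusted p = 0.00304), and Decr1 from 14.7, 13.1 and 13.9 CPM to 18.6, 16.6 and 18.3 CPM (0.36, SE 0.09, edgeR adjusted p = 0.00498). Both were apart. Hadhb fell from 172.9, 164.8 and 179.3 CPM to 138.8, 143.2 and 152.6 CPM (-0.25, SE 0.06, edgeR adjusted p = 0.00354), with the call lost without the DMSO library of passage 14 (adjusted p = 0.0596).

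The other 5 calls at passage 14 were weaker still. Eci1 (0.25, edgeR adjusted p = 0.0265) lost its call without any 1 of the 6 libraries of passages 12 and 14 (0.0590 to 0.159). Acsl5 (0.20, edgeR adjusted p = 0.0167) lost it without any 1 of those 6 other than the DMSO library of passage 14 (0.0523 to 0.146). Cpt1c (-0.28, edgeR adjusted p = 0.0317) lost it without the DMSO library of passage 12, either 0.5 µM library or the 10 µM library of passage 14 (0.0905 to 0.171). Hadha (-0.20, edgeR adjusted p = 0.0235) and Acadl (-0.21, edgeR adjusted p = 0.0402) lost it without either DMSO library, the 0.5 µM library of passage 14 or the 10 µM library of passage 12 (0.0952 to 0.138 and 0.103 to 0.248). Slc27a1, Cpt1c, Acadl, Hadha and Eci1 did not pass without the treatment term (edgeR adjusted p 0.0572 to 0.317), and Cpt1c, Acadl and Eci1 did not in DESeq2 (adjusted p = 0.0577, 0.0614 and 0.0588).

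From passage 14 to 18, 4 genes were higher and 4 lower, against 15.8% and 17.3% of all genes. Fabp5 rose by 1.54 (SE 0.07, edgeR adjusted p = 1.30e-14) and Acsbg1 fell from 3.46, 3.82 and 3.48 CPM to 1.93, 1.83 and 2.02 CPM (-0.90, SE 0.19, edgeR adjusted p = 0.000416). Cpt1c rose from 15.9, 15.6 and 14.04 CPM to 19.4, 21.9 and 22.4 CPM (0.48, SE 0.09, edgeR adjusted p = 0.000151), Slc25a20 by 0.36 (SE 0.07) and Acaa1a by 0.31 (SE 0.08). Acsl1 (-0.26), Eci2 (-0.24) and Echs1 (-0.20) were lower, and each lost its call without some single libraries. For Echs1 these were any 1 of 7, the DMSO libraries and the 0.5 and 10 µM libraries of passages 14 and 18 (edgeR adjusted p 0.0514 to 0.121). For Acsl1 they were the 0.5 µM library of passage 14 and the 10 µM libraries of passages 14 and 18 (0.0528 to 0.117), and for Eci2 the DMSO library of passage 18 and the 0.5 µM library of passage 14 (0.105 and 0.0847).

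Of 66 related genes 12 were higher and 12 lower from passage 12 to 18, shares near the 15.9% and 19.2% of all genes. Fabp4, the adipocyte-type binding protein also known from capillary endothelium, rose with Fabp5, from 5.28 to 7.16 CPM at passage 12 to 17.4 to 25.6 CPM at passage 18 (1.66, SE 0.12). Cav1, the caveolar coat protein, stood at 425.7 to 456.7 CPM at passage 12, 901.8 to 980.3 CPM at passage 14 and 629.7 to 726.5 CPM at passage 18. Got2, a mitochondrial transaminase also described as a fatty acid binding protein of the plasma membrane, fell from 249.1 to 256.1 CPM to 148.0 to 174.4 CPM (-0.66, SE 0.06). In the same comparison 10 of 12 tested endothelial markers were higher and 1 lower, and their summed level was 4597 to 5333 CPM at passage 12 and 5892 to 6523 CPM at passage 18. Their part in the values above was not tested.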

How the data were processed

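RNA sequencing gave 2 deposited tables, 16 bacTRAP and 9 cEND libraries, whose values are the authors' deposited estimated counts, unscaled (the program is not given in the sources used here, and 17.3% and 19.8% of values are not whole). The genome build was GRCm38, per the submitters' processing notes; treatment time and strandedness are not given in the sources used here. Counts were rounded and fitted with edgeR 4.0.16 (TMM, filterByExpr with a minimum count of 10, robust quasi-likelihood, 2-sided, limma 3.58.1) in R 4.3.3; p-values were adjusted by Benjamini and Hochberg's method over all genes tested, with a threshold of 0.05. Alternatives were DESeq2 1.42.0, RLE and upper-quartile factors, no filter, a replicate block, other sets of libraries or terms, and each library left out. The fits were tested on simulated data.

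The 36 genes and the lists were chosen with earlier results of these data known. Per-sample values are given for the genes that passed, at most 12 per comparison by smallest p within each step, or else for the 3 of smallest p; of each related list up to 3 that passed. Cd36 and Cpt1a in the diet comparison in IP, Cpt1a with WZB117, and a few further related genes were named after their values were seen.

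Passage labels pair the cEND libraries: deviations of same-passage libraries correlated at 0.378 to 0.577, others at -0.414 to -0.083. Gene positions are from GENCODE M21 and exon lengths are unions of its exons. Several genes share exon bases with another gene (Fabp3, Acsl3, Acsl5, Acsl6, Acadvl, Hadha, Acaa1a, Echs1, Eci2, Etfb and Etfdh), Acaa1a has the near-identical copy Acaa1b and Fabp5 has pseudogenes, so their levels are uncertain. No 2 libraries of a group agreed within sampling noise (lowest chi-square per degree of freedom 9.08). Some related genes that were tested are not reported here by name.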

Additional observations from a re-analysis of the deposited data

Results flagged for a closer look

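In 6 of 144 groups of 4 libraries (36 genes in 4 groups) 1 library stood apart from the other 3 by Dixon's criterion, which chance gives in about 1 of 20 groups. Eci1 had 9.43 CPM in CD INPUT replicate 3 against 7.02 to 7.37 CPM in the others, and Etfdh had 18.5 CPM in CD INPUT replicate 4 against 19.98 to 20.15 CPM. In HFD INPUT replicate 2, Acsl4 was high (58.2 CPM against 45.8 to 47.8 CPM) and Acaa2 was low (8.37 CPM against 9.82 to 9.91 CPM). In HFD IP, Fabp7 was high in replicate 1 (470.5 CPM against 351.4 to 365.9 CPM) and Acadvl in replicate 4 (87.7 CPM against 73.4 to 74.7 CPM).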

How the results depend on the processing

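No value changed direction while called under any alternative. In IP against INPUT 1 of the 36 genes, Cpt1c, ever changed its call; upper-quartile factors shifted the median of all genes by -0.13. For HFD against CD in IP, the count of the 36 genes lower was 0, and 1 under DESeq2, the replicate block and the fit of 16 libraries, 2 with no filter on low counts, and 0 to 1 with a library left out. Genes called among all genes were 14, and 200 under DESeq2, 398 with no filter, 52 with the replicate block, 121 with 16 libraries and 5 to 50 with a library left out. For the diet in INPUT they were 6, and 52, 116 (with 1 of the 36, Fabp7, higher), 43, 2 and 2 to 17 in the same order. The interaction called 0, and 4 under DESeq2, 1 with no filter, 1 with the replicate block and 0 to 1 with a library left out. Whether INPUT and IP libraries of 1 number share a lysate is not given in the sources used here. Deviations of same-numbered INPUT and IP correlated at -0.007 to 0.136 (others -0.138 to 0.095), with 7 of 8 INPUT libraries closest to their own number, and across diets at -0.016 to 0.071 (others -0.111 to 0.102). In the diet comparisons within IP or INPUT, the replicate block matched CD with HFD pools by number alone, and these are different mice. With that block in IP edgeR called Slc27a1 lower with HFD (adjusted p = 0.0386), a call that rests on this matching. For WZB117 at 10 µM, genes called were 197 against DMSO, and 534 under DESeq2 (with 1 of the 36 higher), 2864 with passage as the replicate block (3 higher and 1 lower of the 36) and 38 to 195 with a library left out. Against 0.5 µM they were 197, and 524, 2759 (5 higher and 1 lower) and 33 to 152. The passage block changed no call at 0.5 µM against DMSO. With a library left out, the 36 genes gave 1 to 3 higher and 3 to 7 lower for passage 14 against 12 (2086 to 3668 of all genes), 4 to 8 and 5 to 10 for 18 against 12, and 1 to 4 lower for 18 against 14. With no treatment term these comparisons gave 2, 5 and 1 lower, and 1623, 3269 and 2924 of all genes against 3336, 5422 and 5121. With 1 library of a treatment or passage fewer, the fit assumes that the rest share 1 spread. Depth limits Cd36, Pdk4 and the other genes near 0 counts.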
